A study of Mus musculus with 18 samples.

Results

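The comparison described here set CD25+ CD4 T cells of mouse epididymal fat (Treg) against the CD25- CD4 T cells of the same fat depot (Tconv), across all genes measured. Its members were chosen by the array labels alone: 3 arrays titled as fat CD4 Treg cells and 3 titled as fat CD4 Tconv cells, 6 of the 18 Affymetrix M430v2 arrays of the study. The other 12 arrays hold the same pair of populations, 3 arrays each, from lymph node and from thymus, and they enter below only where the fat difference was set against theirs. The comparison asks which transcripts distinguish the 2 CD4 T cell populations of abdominal fat.

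For each fat array, cells of 8 to 10 male C57BL/6 mice, aged 25 to 35 weeks, were pooled. Both fat populations were sorted as B220-, CD11b-, CD8a-, CD4+ and TCRb+ cells, and differed in the gate only by CD25. Lymph node cells came from C57BL/6 mice of 32 to 36 weeks, with 3 to 6 mice an array. The thymus arrays also pooled 3 to 6 mice, which were BDC2.5/NOD and aged 4 to 6 weeks, and CD8a+ cells were depleted before the sort. No group carried a treatment in the labels, and sex is given for the fat mice only. The gate defines a Treg by CD25 and not by Foxp3, so activated CD25+ cells could fall within it. Errors are between pools of mice, 3 a group, and not between mice, and in sorted bulk RNA fewer cells of a type and less RNA per cell cannot be told apart.

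Regulatory T cells are CD4 T cells that hold other immune cells in check, and the transcription factor Foxp3 sets up and keeps their identity. Those of visceral fat are known as a distinct tissue population, with the lipid-sensing nuclear receptor PPAR-gamma among its regulators and a link to the metabolic health of lean animals. Conventional CD4 T cells of fat are mostly antigen-experienced, and many belong to the type 1 lineage, which the factor T-bet directs and which makes interferon-gamma.

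Foxp3 served as the check of the labels. Its intensity was 1644, 1579 and 1452 on the Treg arrays and 68.3, 138 and 67.9 on the Tconv arrays, an 18.1-fold difference (log2 4.18 ± 0.28, SE; limma adjusted p = 1.1e-08). All 3 Treg arrays lay far above all 3 Tconv arrays, as their labels say. Il2ra, which encodes CD25, differed by 4.91 on the log2 scale, but it was the sort marker and is no finding. T cell transcripts were present in both populations: Cd3e, a chain of the T cell receptor complex, read 2092, 2164 and 1648 on Treg arrays against 2570, 2235 and 1868 on Tconv arrays (log2 -0.17, adjusted p = 0.87). Cd4 differed by -0.25 (adjusted p = 0.61).

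Of 12821 genes tested, 1476 were called at an adjusted p under 0.05, which is 11.5% of them. Of these, 810 were higher in Treg (6.32% of all genes tested) and 666 lower (5.19%). The median difference of all genes tested was 0.01, that of the genes called higher was 1.04 and that of the genes called lower was -0.97. At least a 4-fold difference was reached by 114 of the higher and 70 of the lower genes, and at least an 8-fold difference by 33 and 23. The 3 arrays of one group lay apart from the 3 of the other for 1435 of the called genes, against 25.2% of all genes tested. With the array number as a replicate block, 2652 genes were called (20.7%), 1311 higher (10.2%) and 1341 lower (10.5%), and 1475 of the 1476 calls were kept. A called gene is said below to rise or fall in Treg.

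**Figure D1:**
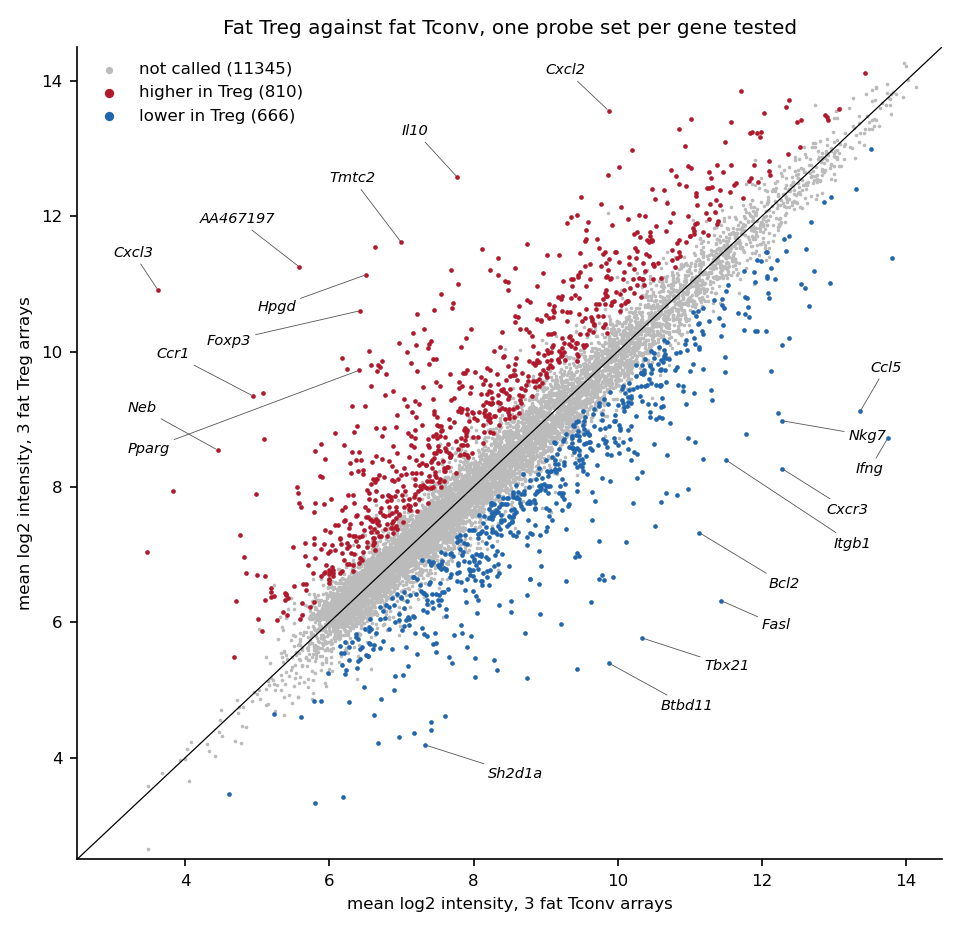
Mean log2 intensity of the 3 fat Tconv arrays (horizontal axis) against that of the 3 fat Treg arrays (vertical axis), 1 point per gene tested; the diagonal marks equal intensity. Cxcl3 lies furthest above the diagonal (log2 7.28) and Fasl furthest below it (log2 -5.11) among genes whose groups do not overlap.

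Transcripts of other fat-resident cells were present on the arrays of both populations and varied with the array number. The summed intensity of 21 macrophage and monocyte markers was 6319, 2302 and 6734 on Treg arrays 1 to 3 and 4304, 1873 and 4110 on Tconv arrays 1 to 3. Treg array 2 thus lay below Tconv arrays 1 and 3, and the groups overlapped. None of the 17 tested members was called, with a median of 0.45, but 6 were called higher with the replicate block and also when Treg array 2 was left out. Itgam, Marco and Lyve1 stayed below the filter on dim signals on every fat array. Stromal and mesothelial markers summed to 12303, 4158 and 5204 on Treg arrays and 7973, 3767 and 3933 on Tconv arrays, so that Treg array 1 stood apart, and none of 10 tested members was called (median 0.38; 4 were higher with the block, and 2 without Tconv array 1). The mesothelial genes Msln, Krt19, Krt18 and Wt1 stayed below the filter on all 6 arrays. Upk3b, a further mesothelial gene of the list, was above it on every array, with 230, 104 and 143 on Treg arrays and 172, 80.6 and 111 on Tconv arrays.

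Adipocyte markers differed little between the populations, with sums of 4203, 2538 and 3372 on Treg arrays and 4243, 2269 and 3150 on Tconv arrays. The largest part was Fabp4, a fatty acid carrier that macrophages also express, which read 2787, 2024 and 2777 against 2807, 1601 and 2528, while Lep, Cidec, Lipe and Aqp7 stayed below the filter. None of 4 tested adipocyte genes was called, and 1 was called lower with the block or without Treg array 1. Markers of dendritic cells and of antigen presentation by MHC class II, taken as 1 list, summed to 3931, 2572 and 4205 against 2728, 2077 and 2440. Of 11 tested members 1, H2-Eb1, was called (1.03 ± 0.19, adjusted p = 8.6e-04). With the replicate block 3 were higher and 1 lower, without Treg array 2 there were 2 higher, and without Treg array 3 or Tconv array 1 there was 1 lower. The sum of this list was the higher on the Treg array in all 3 pairs of the same number. The endothelial sums were 2236, 1256 and 1539 against 1668, 1176 and 1383, with none of 6 tested members called (2 were higher with the block and without Treg array 2, and 1 without Tconv array 1) and Pecam1, Cdh5, Vwf and Emcn below the filter. B cell markers summed to 4749, 4463 and 3322 against 2466, 4812 and 2767, with 1 of 10 tested members, Bank1, called lower (1 more was called higher with the block or without Tconv array 2). The largest part of each B cell sum was Ighm, which read 3412, 3101 and 2138 on Treg arrays and 983, 3273 and 1400 on Tconv arrays. Cd79a was below the filter on every fat array. The part of these transcripts in the differences below was not tested, except where a value is given.

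**Figure D2:**
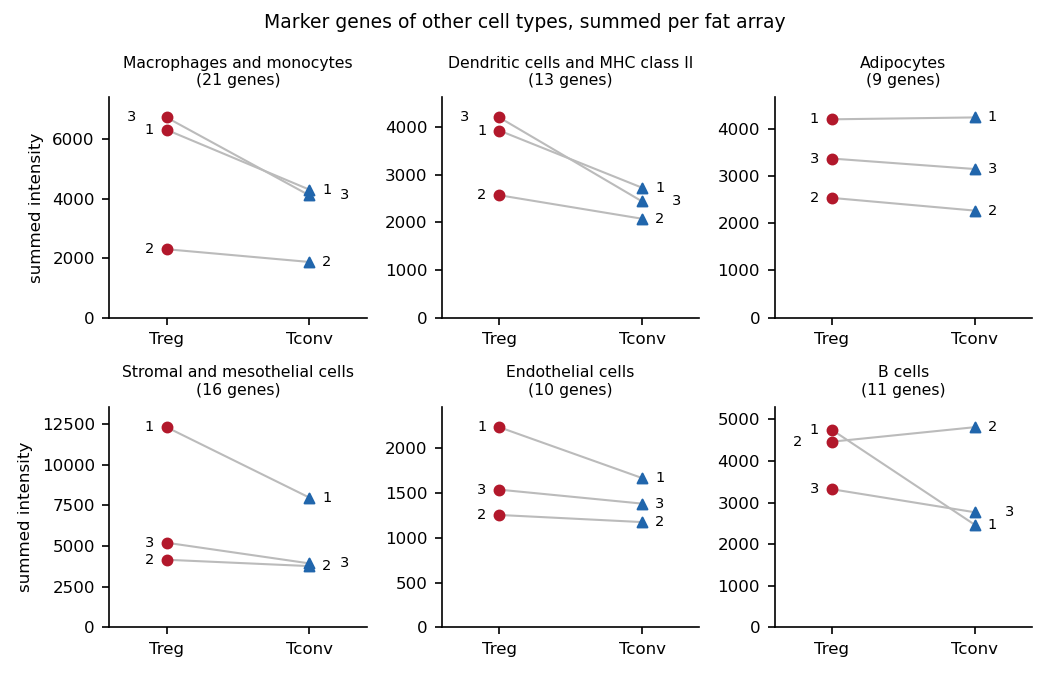
Summed intensity of marker genes of other cell types on each fat array, with Treg arrays as circles, Tconv arrays as triangles and a line joining arrays of the same number. For macrophages the Treg sums run from 2302 to 6734 and the Tconv sums from 1873 to 4304, and in each pair of the same number the Treg array is the higher.

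Of 28 tested genes that mark Treg cells in general, 18 rose, Foxp3 and the sort marker Il2ra among them, and 1 fell, with a median of 1.86 beside 0.01 for all genes tested; the list was chosen for such cells and its direction is no independent finding. Ctla4, an inhibitory receptor by which Treg cells strip costimulatory ligands from other cells, read 9169, 9919 and 11003 on Treg arrays and 1065, 2458 and 2368 on Tconv arrays (2.44 ± 0.32, adjusted p = 3.8e-05). Ikzf4, a transcription factor that partners Foxp3, rose by 2.45 ± 0.32 on the main probe set (adjusted p = 3.7e-05), although 2 other bright probe sets gave -0.06 and 1.19. Itgb8, an integrin chain that helps release active TGF-beta, read 483, 276 and 474 against 55.5, 72.3 and 51.6 (2.75 ± 0.37, adjusted p = 5.4e-05). Ebi3, a subunit of the suppressive cytokine IL-35, read 519, 287 and 413 against 72.9, 68.5 and 79.5 (2.42 ± 0.19, adjusted p = 9.2e-08). No Treg array overlapped a Tconv array for any of these 4 genes.

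Klrg1, an inhibitory receptor of terminally differentiated T cells, read 11083, 10946 and 11076 on Treg arrays and 2491, 2110 and 1715 on Tconv arrays (2.41 ± 0.20, adjusted p = 2.1e-07). Il1r2, a decoy receptor for IL-1, rose by 2.25 ± 0.32 (adjusted p = 8.8e-05) from a Tconv level close to the filter. Gzmb, the protease granzyme B, read 2362, 2687 and 1439 against 371, 348 and 351 (2.55 ± 0.31, adjusted p = 1.6e-05). Several familiar Treg genes were not called in fat: Icos differed by -0.03, Nrp1 by 0.21, Itgae by 0.47 and Entpd1 by 0.40. The one member that fell, Nt5e (an ectoenzyme that makes adenosine), had groups that overlapped, with 61.5, 59.3 and 83.1 against 78.8, 216 and 148 (-1.02 ± 0.29, adjusted p = 0.027). That call was lost without Treg array 1, Treg array 2, Tconv array 2 or Tconv array 3, at adjusted p up to 0.17, and 2 other bright probe sets gave 0.01 and 0.02.

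The cytokine and chemokine transcripts that rose on the fat Treg arrays were led by Il10 and by those of neutrophil-attracting chemokines. Il10, an anti-inflammatory cytokine, read 5559, 6542 and 6253 on Treg arrays and 193, 259 and 210 on Tconv arrays, a 27.9-fold difference (4.80 ± 0.16, adjusted p = 4.2e-12). Of 24 tested cytokines 7 rose and 4 fell, and 11 rose with the replicate block. Il5, a type 2 cytokine that sustains eosinophils, read 365, 112 and 221 against 69.6, 63.2 and 92.1 (1.49 ± 0.28, adjusted p = 0.0013), with Treg array 1 the highest and no overlap. Il18, an inflammasome product, rose by 1.29 (adjusted p = 1.7e-05), and Csf2, a myeloid growth factor, by 1.01 (adjusted p = 0.0011). Il21, a helper cytokine of B cell responses, fell by 1.99 on the log2 scale (adjusted p = 0.0049), and Il4 by 1.08 (adjusted p = 0.0028). Il2, a growth factor that Treg cells take up but scarcely make, read 67.7, 94 and 88.9 against 119, 114 and 155 (-0.63 ± 0.16, adjusted p = 0.015). Its call was lost without Treg array 1 or without Tconv array 3, at adjusted p up to 0.099. Tgfb1 was not called (0.48 ± 0.20, adjusted p = 0.17), though it was with the replicate block (adjusted p = 0.0037).

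Among 23 tested chemokine ligands, Cxcl2, Cxcl3 and Cxcl10 rose and Ccl5 fell. With the replicate block 7 rose. Leaving out Treg array 1 gave 3 lower members and leaving out Treg array 2 gave 5 higher ones. Cxcl3 and Cxcl2 both act on the neutrophil receptor CXCR2. Cxcl3 read 2102, 1937 and 1733 on Treg arrays, while the Tconv arrays, at 10.3, 18.8 and 9.6, lay below the filter on dim signals, so that the fitted 156-fold difference (7.28 ± 0.18, adjusted p = 6.4e-14) rests on a Tconv level at background. Cxcl2 read 13386, 11354 and 11583 against 1503, 811 and 676 (3.69 ± 0.22, adjusted p = 3.3e-09). Cxcl10, a ligand of CXCR3, read 1577, 1167 and 1020 against 128, 112 and 201 (3.12 ± 0.25, adjusted p = 1.3e-07). Macrophages are known to make all 3 of them, and the macrophage sums given above were higher on the Treg array in each pair of the same number. Their part in these differences was not tested.

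The neighbouring gene Cxcl1, which encodes another CXCR2 ligand and was singled out after its values were seen, varied widely among the arrays of each population. It read 4994, 1518 and 1395 on Treg arrays and 3007, 369 and 942 on Tconv arrays, with overlap (1.11 ± 0.54, adjusted p = 0.26), and was called with the replicate block (adjusted p = 0.0041). Ppbp, which also yields a CXCR2 ligand, and Pf4 lie in the same chemokine cluster; they differed by 0.86 and 0.37 and were not called. As several NF-kB genes, described below, were also higher on the fat Treg arrays, the promoters of Cxcl3, Cxcl2 and Cxcl1 are shown, as the 250 bases before each start site in RefSeq on GRCm38.p6, all on the + strand. Cxcl3 lies at chr5:90785851-90786100, Cxcl2 at chr5:90903649-90903898 and Cxcl1 at chr5:90890995-90891244. Capitals mark each match to the letters GGG, any 2 bases and TTTCC, a form of the motif that NF-kB proteins bind, searched on both strands.
Cxcl3: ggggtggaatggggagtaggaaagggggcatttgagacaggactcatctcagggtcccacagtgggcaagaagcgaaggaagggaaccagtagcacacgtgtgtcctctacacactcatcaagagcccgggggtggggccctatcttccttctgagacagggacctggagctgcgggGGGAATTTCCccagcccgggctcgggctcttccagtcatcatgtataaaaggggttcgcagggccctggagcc
Cxcl2: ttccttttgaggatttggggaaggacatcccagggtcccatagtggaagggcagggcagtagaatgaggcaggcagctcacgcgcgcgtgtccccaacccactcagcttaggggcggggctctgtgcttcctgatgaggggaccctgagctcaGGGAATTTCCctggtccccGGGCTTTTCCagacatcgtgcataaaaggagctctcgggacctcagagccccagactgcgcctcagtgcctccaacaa
Cxcl1: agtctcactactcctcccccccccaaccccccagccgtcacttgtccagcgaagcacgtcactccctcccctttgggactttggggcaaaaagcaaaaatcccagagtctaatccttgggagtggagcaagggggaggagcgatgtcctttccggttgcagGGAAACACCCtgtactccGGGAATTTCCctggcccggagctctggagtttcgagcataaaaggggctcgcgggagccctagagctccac

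Cxcl3 held 1 match, GGGAATTTCC, which began 73 bases before the start site. Cxcl2 held the same 10 letters 97 bases before the start and GGGCTTTTCC 78 bases before it. Cxcl1 held GGGAATTTCC 71 bases before the start and GGAAACACCC, a match on the other strand, 89 bases before it. The motif occurred in 464 of 32851 promoter windows of that length, or 1.41%. No match to this form lay in the windows of Cxcl10, which rose, or of Ppbp and Pf4, which were not called. Other forms of the motif were not searched, so their absence is not shown. The Cxcl10 window held the similar letters GGGAAATTCC and GGGGACTTCC, which the searched form does not cover. These genes were chosen after their values were seen, and a match is a description of the sequence only.

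Receptors for chemokines and lipid mediators moved in both directions. Of 22 tested genes of chemokine receptors and recirculation, 6 rose and 6 fell, and the median was -0.21. Ccr1, a receptor for inflammatory chemokines, read 713, 482 and 793 on Treg arrays and 38.3, 26.3 and 28.9 on Tconv arrays, where it was below the filter (4.40 ± 0.23, adjusted p = 8.5e-10). Ccr2, the receptor for the monocyte chemokine CCL2, rose by 1.94 ± 0.33 (adjusted p = 5.1e-04), and Ccr9, which guides T cells to the gut, read 802, 2197 and 735 against 122, 247 and 105 (2.89 ± 0.53, adjusted p = 9.5e-04). Ltb4r1, the high-affinity receptor for leukotriene B4, read 728, 1054 and 1416 against 60.4, 121 and 110 (3.46 ± 0.26, adjusted p = 7.2e-08). Groups apart were a condition of choice for Ccr1 and Ltb4r1. Ccr2 and Ccr9 did not overlap between the groups either, although Treg array 2 stood above the other Treg arrays for Ccr9. Cysltr1, a receptor for cysteinyl leukotrienes, rose by 1.88 ± 0.37 (adjusted p = 0.0018), while Ptger4, the EP4 receptor for prostaglandin E2, fell from 4592, 4206 and 4150 on Tconv arrays to 2363, 2201 and 1971 on Treg arrays (-0.99 ± 0.12, adjusted p = 2.3e-05).

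Genes of lymphoid recirculation were among those that fell. Ccr7, which guides T cells to lymph nodes, read 90.4, 61 and 93.7 on Treg arrays and 139, 336 and 413 on Tconv arrays (-1.74 ± 0.36, adjusted p = 0.0029). S1pr1, the receptor by which T cells leave lymphoid tissue, read 284, 257 and 274 against 916, 934 and 993 (-1.80 ± 0.19, adjusted p = 2.4e-06). Cxcr3, the type 1 homing receptor for CXCL10, read 374, 205 and 383 against 4344, 5131 and 5509 (-4.01 ± 0.22, adjusted p = 1.1e-09). The fat Treg arrays thus read higher for the ligand transcript Cxcl10 and lower for the transcript of its receptor than the Tconv arrays. Cxcr6 was called higher (1.20 ± 0.37, adjusted p = 0.045), but that call was lost in 5 of 6 fits with 1 array left out, at adjusted p up to 0.21, and held only without Tconv array 3.

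Integrins and adhesion molecules were exchanged rather than raised as a group, with 8 of 29 tested members higher and 5 lower. The lower count was 3 when Treg array 1, Treg array 2, Tconv array 2 or Tconv array 3 was left out. Itgav, the alpha-v chain that pairs with the beta-8 chain in TGF-beta release, read 9039, 7391 and 7889 on Treg arrays and 1209, 1274 and 1041 on Tconv arrays (2.79 ± 0.15, adjusted p = 1.3e-09). Alcam, a ligand of CD6, read 2375, 2843 and 2858 against 218, 433 and 365 (3.04 ± 0.38, adjusted p = 2.4e-05). In the other direction Itgb1, the beta-1 chain of collagen and fibronectin receptors, read 391, 276 and 356 against 2239, 3057 and 3552 (-3.10 ± 0.17, adjusted p = 1.1e-09), and a further bright probe set gave -2.73. Itga1, the alpha-1 chain that pairs with it, fell by 1.13 (adjusted p = 4.0e-04). The Treg and Tconv arrays did not overlap for any of these 4 genes, which was a condition of choice for Itgb1. In the TGF-beta list, 6 of 24 rose and 2 fell; Pmepa1, a target and inhibitor of the pathway, rose by 1.77 ± 0.19 (adjusted p = 3.3e-06), and Smad1, a transducer of BMP signals, fell by 1.33 (adjusted p = 2.3e-04). The lower count there was 1 without Treg array 2, Tconv array 2 or Tconv array 3.

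**Figure D3:**
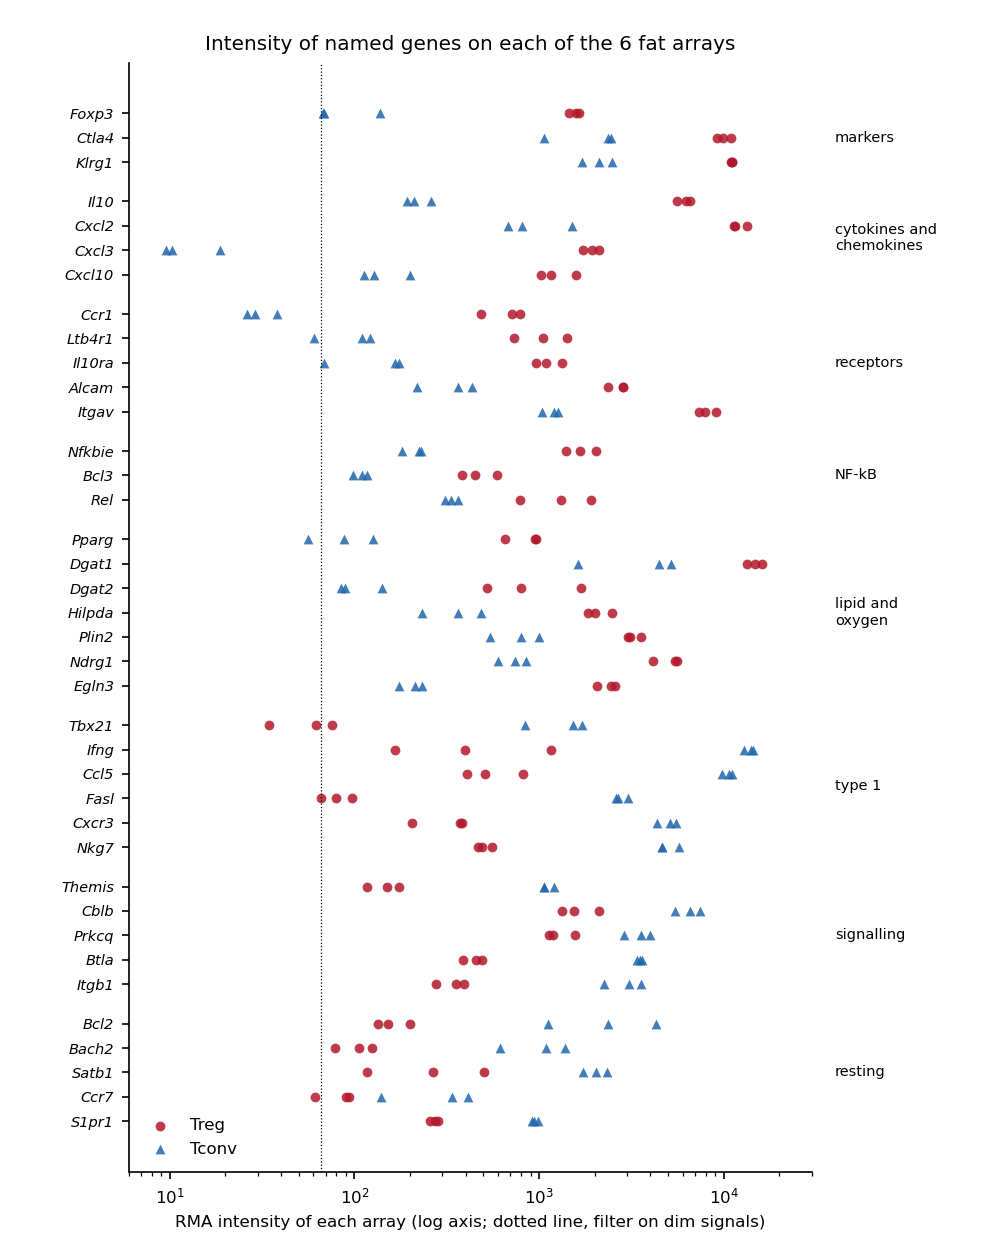
Intensity of named genes on each of the 6 fat arrays on a log axis, with Treg as circles and Tconv as triangles; the dotted line is the filter on dim signals at 65.9. For every gene shown the 3 Treg arrays lie on one side of the 3 Tconv arrays, with the Tconv values of Cxcl3 and Ccr1 left of the filter line. Groups apart were a condition of choice for the genes named as the largest differences, so their separation is no finding. The groups were apart for 1435 of the 1476 called genes and for 25.2% of all genes tested.

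Many genes of TNF receptors and NF-kB signalling rose in Treg, though not all. Of 21 tested TNF receptors and their adaptors 9 rose and 2 fell, with a median of 0.56 and 10 not called. Tnfrsf4, which encodes the costimulatory receptor OX40, read 7813, 4705 and 6527 on Treg arrays and 851, 770 and 1222 on Tconv arrays (2.74 ± 0.26, adjusted p = 1.0e-06). Tnfrsf9, which encodes 4-1BB, read 1490, 1214 and 2229 against 257, 154 and 225 (2.94 ± 0.26, adjusted p = 4.2e-07). Tnfrsf1b, TNF receptor 2, rose by 1.25 ± 0.26 (adjusted p = 0.0032), whereas Tnfrsf1a, TNF receptor 1, read 701, 318 and 342 against 1292, 743 and 995 (-1.22 ± 0.24, adjusted p = 0.0019). The groups did not overlap for either receptor. The Tnfrsf1a call was lost when the 6 fat arrays were fitted alone (adjusted p = 0.051). Of 12 tested TNF family ligands none rose and 3 fell, with 5 lower under the replicate block.

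In the NF-kB list 12 of 22 tested members rose, none fell and 10 were not called, with a median of 0.77. Rel, a subunit of the pathway, read 1917, 788 and 1312 on Treg arrays and 335, 311 and 366 on Tconv arrays (1.90 ± 0.25, adjusted p = 3.9e-05), and Relb rose by 1.29 ± 0.22 (adjusted p = 4.7e-04). Among inhibitors and modulators, Nfkbie (I-kappa-B epsilon) read 2033, 1661 and 1400 against 228, 224 and 182 (3.00 ± 0.19, adjusted p = 7.2e-09). Bcl3, a nuclear member of the same family, read 591, 382 and 450 against 98.5, 117 and 110 (2.11 ± 0.23, adjusted p = 5.4e-06). Each of these genes had 3 Treg arrays above all Tconv arrays. Birc3, an inhibitor of apoptosis and a known target of the pathway, rose by 1.71 ± 0.20 (adjusted p = 1.1e-05), as did the kinase gene Map3k8 (2.24 ± 0.27, adjusted p = 1.5e-05). The feedback inhibitors Nfkbia and Tnfaip3 were bright in both populations and were not called, with differences of 0.29 and 0.46.

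Genes that T cells switch on within an hour of stimulation, or of tissue handling, also differed. Of 47 tested immediate early genes 18 rose and 4 fell, with a median of 0.49; 2 fell without Treg array 3, Tconv array 2 or Tconv array 3. Dusp4, a phosphatase that limits MAP kinases, read 2886, 2429 and 3527 on Treg arrays and 190, 276 and 412 on Tconv arrays (3.39 ± 0.26, adjusted p = 8.6e-08). Zfp36, which promotes decay of cytokine messages, read 5535, 5989 and 4703 against 1675, 1377 and 1749 (1.76 ± 0.15, adjusted p = 2.9e-07). Zc3h12a, a nuclease with a like role, was not counted among the immediate early genes and rose by 2.12 ± 0.30 (adjusted p = 8.3e-05). Both groups were apart for the 3 genes, which was a condition of choice for Dusp4. Dusp6, another MAP kinase phosphatase, fell by 1.07 (adjusted p = 0.0031) and Gadd45a, a stress sensor, by 1.86 (adjusted p = 6.9e-05).

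Among the other receptor lists, 8 of 33 tested cytokine receptors rose, the sort marker Il2ra among them, and 3 fell; with the replicate block 5 fell. Without Treg array 3 the higher count was 5. None was called lower without Treg array 2, Treg array 3 or Tconv array 2, and 1 without Tconv array 3. Il10ra, which encodes the ligand-binding chain of the IL-10 receptor, read 958, 1087 and 1331 on Treg arrays and 68.6, 174 and 165 on Tconv arrays (3.15 ± 0.29, adjusted p = 7.4e-07), so that the fat Treg arrays were higher in both Il10 and its receptor. Pdcd1, the inhibitory receptor PD-1, read 680, 502 and 1079 against 63, 91.7 and 150 (2.91 ± 0.34, adjusted p = 9.9e-06). Its ligand Pdcd1lg2 rose by 1.96 ± 0.23 (adjusted p = 1.3e-05). The groups did not overlap for any of the 3. Cish and Pim1, both induced by STAT5, rose by 1.52 (adjusted p = 5.2e-06) and 1.79 (adjusted p = 5.4e-05), while Socs3, an inhibitor of STAT3 signals, read 2321, 930 and 934 against 4380, 4288 and 4183 (-1.76 ± 0.37, adjusted p = 0.0036), with Treg array 1 above the other Treg arrays.

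Genes of fat storage and of the response to low oxygen rose in small sets. Pparg, which encodes PPAR-gamma, read 657, 967 and 950 on Treg arrays and 55.8, 87.5 and 126 on Tconv arrays (3.31 ± 0.24, adjusted p = 3.9e-08). Of 29 tested genes of lipid uptake and storage 6 rose and 1 fell, with a median of 0.07, so the list as a whole lay near the median of all genes. With the replicate block 8 rose and 3 fell. The one that fell was not called without Treg array 2, Tconv array 2 or Tconv array 3. Dgat1 and Dgat2 encode the enzymes that complete triglyceride synthesis. Dgat1 read 16058, 13451 and 14787 against 5199, 1632 and 4470 (2.13 ± 0.28, adjusted p = 3.8e-05). Dgat2 read 1682, 523 and 800 against 141, 88.5 and 84.3 (3.13 ± 0.30, adjusted p = 1.2e-06), with Treg array 1, the array with the highest stromal sum, above the other Treg arrays. Hilpda, a lipid droplet protein that blocks lipolysis, read 2495, 1846 and 2022 against 366, 231 and 487 (2.61 ± 0.24, adjusted p = 5.5e-07), and Plin2, a coat protein of lipid droplets, read 3037, 3120 and 3558 against 795, 542 and 1003 (2.09 ± 0.19, adjusted p = 4.2e-07).

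The Treg arrays were above the Tconv arrays for each of these storage genes. A further bright probe set of Dgat2 gave only 0.31. Macrophages also store lipid, and the part of their transcripts in these differences was not tested. The fatty acid transporter Cd36 overlapped between the groups, with 595, 192 and 381 against 254, 141 and 296 (0.68 ± 0.31, adjusted p = 0.22); it was called with the replicate block (adjusted p = 0.012), and its difference ran from 0.30 without Treg array 1 to 1.12 without Treg array 2. Fabp4 differed by 0.15 and Lpl by 0.32, and neither was called. Of 25 tested genes of fatty acid oxidation and synthesis 3 rose and none fell, so that 12% were called, near the 11.5% of all genes tested. With the replicate block 5 rose, where 20.7% of all genes tested were called. Among the 3 were the elongases Elovl5 (0.68, adjusted p = 0.0041) and Elovl6 (1.41, adjusted p = 0.0014).

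Of 17 tested genes of hypoxia and Ahr signalling 4 rose and none fell. Egln3, an oxygen-sensing prolyl hydroxylase, read 2457, 2066 and 2593 on Treg arrays and 175, 234 and 213 on Tconv arrays (3.52 ± 0.31, adjusted p = 3.4e-07), and Ndrg1, a stress gene induced by low oxygen, read 5562, 4125 and 5426 against 744, 598 and 845 (2.79 ± 0.22, adjusted p = 1.3e-07). Other genes of that response, such as Vegfa (0.31) and Ddit4 (-0.15), were not called. The metallothioneins Mt1 and Mt2, which bind zinc and copper, read 1048, 568 and 543 against 198, 72 and 114 (2.55 ± 0.29, adjusted p = 6.2e-06) and 2147, 1404 and 1738 against 602, 287 and 456 (2.02 ± 0.24, adjusted p = 1.3e-05). Treg array 1 was the highest for both, and no array of one group reached the other. Irs2, an adaptor of insulin signalling, read 536, 609 and 616 against 76.5, 98.3 and 66.1 (2.89 ± 0.17, adjusted p = 3.4e-09).

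Among calcium-binding S100 proteins, annexins and cytoskeletal genes of motile or memory T cells, 9 of 19 tested members rose and none fell, with a median of 0.90. S100a4 read 6224, 6645 and 7270 on Treg arrays and 1393, 2621 and 2455 on Tconv arrays (1.69 ± 0.32, adjusted p = 0.0016), with Tconv array 1 the lowest. Lgals3, a galectin also abundant in macrophages, rose by 1.72 ± 0.24 (adjusted p = 6.6e-05). Anxa1, an annexin with anti-inflammatory actions, read 11178, 12962 and 11435 against 4335, 3941 and 4223 (1.51 ± 0.26, adjusted p = 6.0e-04). The Treg arrays lay above the Tconv arrays for all 3. Ctsh, a lysosomal protease, read 1360, 1359 and 1835 against 208, 105 and 150 (3.34 ± 0.32, adjusted p = 1.2e-06).

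The transcripts lower in Treg were led by the type 1 programme of the Tconv cells. Of 20 tested genes of that programme 9 fell and 4 rose, with a median of -0.53; without Treg array 3 or without Tconv array 1 the counts were 7 and 2. Tbx21, which encodes T-bet, read 75.5, 34.6 and 61.8 on Treg arrays and 1706, 835 and 1525 on Tconv arrays (-4.57 ± 0.28, adjusted p = 4.7e-09). Ifng, its target gene interferon-gamma, read 1164, 166 and 396 against 13990, 12955 and 14496 (-5.02 ± 0.48, adjusted p = 1.0e-06). Treg array 1 was the highest Treg array for Ifng, and the difference was -5.75 without Treg array 1 and -4.35 without Treg array 2. Ccl5, a chemokine of effector T cells, read 823, 408 and 510 against 10698, 9846 and 11136 (-4.25 ± 0.25, adjusted p = 2.7e-09). Ifngr1, a chain of the interferon-gamma receptor, was among the members that rose (0.81 ± 0.16, adjusted p = 0.0025).

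Genes of killing were split between the populations. In the list of cytotoxic granules and death ligands 5 of 16 tested members rose and 4 fell, and 3 rose without Treg array 2. Fasl, the ligand of the death receptor Fas, read 96.5, 66.4 and 79.6 on Treg arrays and 2612, 3017 and 2677 on Tconv arrays (-5.11 ± 0.18, adjusted p = 4.2e-12). Nkg7, a granule membrane protein, read 469, 554 and 492 against 4607, 4661 and 5732 (-3.30 ± 0.21, adjusted p = 5.6e-09), and Gzmk, the protease granzyme K, read 114, 114 and 71.9 against 382, 862 and 730 (-2.67 ± 0.26, adjusted p = 1.3e-06). No Treg array came near a Tconv array for these 3 genes. For Fasl and Nkg7, groups apart were a condition of choice. Granzyme B, given above, and Fgl2, a secreted immunosuppressive protein, were higher in Treg: Fgl2 read 3724, 3968 and 4518 against 452, 718 and 851 (2.64 ± 0.29, adjusted p = 4.8e-06). The NK cell markers Ncr1, Klra8 and Klre1 had intensities under 70 on all fat arrays, but the other markers of that list were above the filter. Gzma read 197, 88 and 94.7 against 277, 211 and 131, and Tyrobp 160, 81.5 and 146 against 100, 70.7 and 101. Fcer1g read 179, 78.6 and 144 against 116, 70.4 and 112, and Itga2 111, 130 and 102 against 118, 100 and 103. None of 4 tested NK markers was called (1 was higher with the block or without Treg array 2).

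Gata3, the factor that directs type 2 cells and also acts in Treg cells, moved opposite to Tbx21. It read 2613, 1835 and 2373 on Treg arrays and 255, 399 and 335 on Tconv arrays (2.79 ± 0.22, adjusted p = 1.1e-07). In the type 2 list 4 of 13 tested members rose and 1 fell. In the Th17 and follicular helper list 2 of 19 rose and 4 fell, or 5 and 8 with the replicate block. Rora, a nuclear receptor of the Th17 lineage, rose by 1.60 ± 0.26 (adjusted p = 3.2e-04), and the adaptor gene Sh2d1a, needed for help to B cells, read 15, 22.8 and 17.7 against 101, 233 and 177 (-3.14 ± 0.29, adjusted p = 5.4e-07). Its Treg values lay below the filter on dim signals.

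T cell receptor signalling genes were mostly lower or not called in Treg, with 15 of 45 tested members lower, 1 higher and a median of -0.25. Themis, an adaptor of receptor signalling, read 118, 174 and 150 on Treg arrays and 1204, 1063 and 1069 on Tconv arrays (-2.93 ± 0.15, adjusted p = 7.5e-10). Prkcq, the kinase PKC-theta that links the receptor to NF-kB, read 1133, 1565 and 1191 against 2869, 3967 and 3567 (-1.42 ± 0.18, adjusted p = 2.3e-05). Cblb, a ubiquitin ligase that restrains activation, read 2122, 1333 and 1545 against 5422, 7449 and 6582 (-1.98 ± 0.19, adjusted p = 1.3e-06). Activators and restrainers of the pathway were thus both among the genes that fell, and the groups were apart for all 3. Ubash3b, a phosphatase that dampens receptor signals, was the member that rose (2.20 ± 0.24, adjusted p = 5.3e-06). Plcg1 (-0.73) and Pag1 (-1.23) were called lower on the main probe set, while the only other bright probe set of Plcg1 gave 0.06 and the 3 of Pag1 ranged from -1.48 to 0.01. The receptor chains Cd3d, Cd3g and Cd247 differed by -0.11, -0.13 and -0.12 and were not called.

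Inhibitory and costimulatory receptors divided in a like manner, with 5 of 20 tested members higher and 3 lower. Btla, an inhibitory receptor of the immunoglobulin family, read 458, 386 and 489 on Treg arrays and 3534, 3382 and 3628 on Tconv arrays (-2.99 ± 0.19, adjusted p = 5.6e-09). Cd96, a receptor of the nectin-binding family, fell by 2.48 (adjusted p = 2.5e-07) and Slamf6, an adhesion receptor of T and B cells, by 2.82 (adjusted p = 2.5e-07). For cyclic AMP and extracellular purines, 6 of 23 tested genes rose and 6 fell. P2rx7, the ATP-gated channel that can kill T cells, read 111, 99 and 91.3 against 630, 1083 and 919 (-3.10 ± 0.28, adjusted p = 5.0e-07). Pde7a, a phosphodiesterase that breaks down cyclic AMP, read 325, 221 and 195 against 1595, 1764 and 1553 (-2.76 ± 0.21, adjusted p = 6.3e-08), and Vipr1, a receptor for vasoactive intestinal peptide, fell by 2.16 (adjusted p = 9.3e-06). Neither P2rx7 nor Pde7a overlapped between the groups, which was a condition of choice for P2rx7.

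Of 30 tested factors of resting and long-lived T cells, 10 fell, 5 rose and 15 were not called, with a median of -0.29. The higher count was 2 without Treg array 1 and 3 without Tconv array 3. Bach2, a repressor that keeps T cells from terminal differentiation, read 125, 78.9 and 105 on Treg arrays and 617, 1379 and 1097 on Tconv arrays (-3.27 ± 0.26, adjusted p = 9.3e-08). Satb1, a chromatin organiser held low in Treg cells, read 504, 116 and 265 against 2033, 2337 and 1727 (-3.01 ± 0.34, adjusted p = 6.1e-06). Prdm1 and Irf4, which drive effector differentiation, rose by 1.55 (adjusted p = 9.8e-07) and 2.40 (adjusted p = 3.5e-06). Irf4 read 2012, 3129 and 3283 against 377, 505 and 741, and the groups did not overlap for it or for the 2 factors that fell. For Bach2, groups apart were a condition of choice.

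Survival genes were also exchanged. Bcl2, which protects from apoptosis, read 135, 200 and 153 on Treg arrays and 1112, 4312 and 2357 on Tconv arrays (-3.81 ± 0.34, adjusted p = 4.1e-07), and its relative Bcl2l1, which encodes Bcl-xL, read 2127, 1221 and 1462 against 613, 484 and 561 (1.50 ± 0.20, adjusted p = 3.4e-05). All 4 further bright probe sets of Bcl2 were lower in Treg, with differences from -3.37 to -0.84. Among genes that promote death, Pmaip1 (Noxa) read 2496, 2525 and 3290 against 633, 444 and 709 (2.23 ± 0.21, adjusted p = 6.1e-07), while Bcl2l11 (Bim) read 2158, 1994 and 1962 against 7365, 4749 and 6030 (-1.55 ± 0.27, adjusted p = 5.8e-04). Of 24 tested survival genes 6 rose and 4 fell.

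Of 24 tested mitosis genes 5 fell and 1 rose (median -0.59), and the lower count was 0 without Treg array 2 or Tconv array 3, 1 without Treg array 1 or Tconv array 1, and 2 without Treg array 3. Of 26 tested DNA replication genes 5 fell and none rose (median -0.53), with 3 lower without Treg array 1 and 8 lower and 1 higher with the replicate block. Cdc6, which loads the replicative helicase, fell by 1.55 (adjusted p = 0.011) and held in each of those fits. Kif23, a motor protein of cytokinesis, was the one that rose, with 835, 549 and 468 on Treg arrays and 154, 123 and 183 on Tconv arrays (1.98 ± 0.25, adjusted p = 1.8e-05). Of 25 tested type I interferon genes 6 fell and 1 rose (median -0.35), 10 fell with the replicate block, and 3 fell without Treg array 2, Treg array 3, Tconv array 2 or Tconv array 3. Ifit2, an antiviral protein, read 73.7, 61.4 and 76.9 against 165, 432 and 260 (-1.91 ± 0.24, adjusted p = 1.9e-05).

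**Figure D4:**
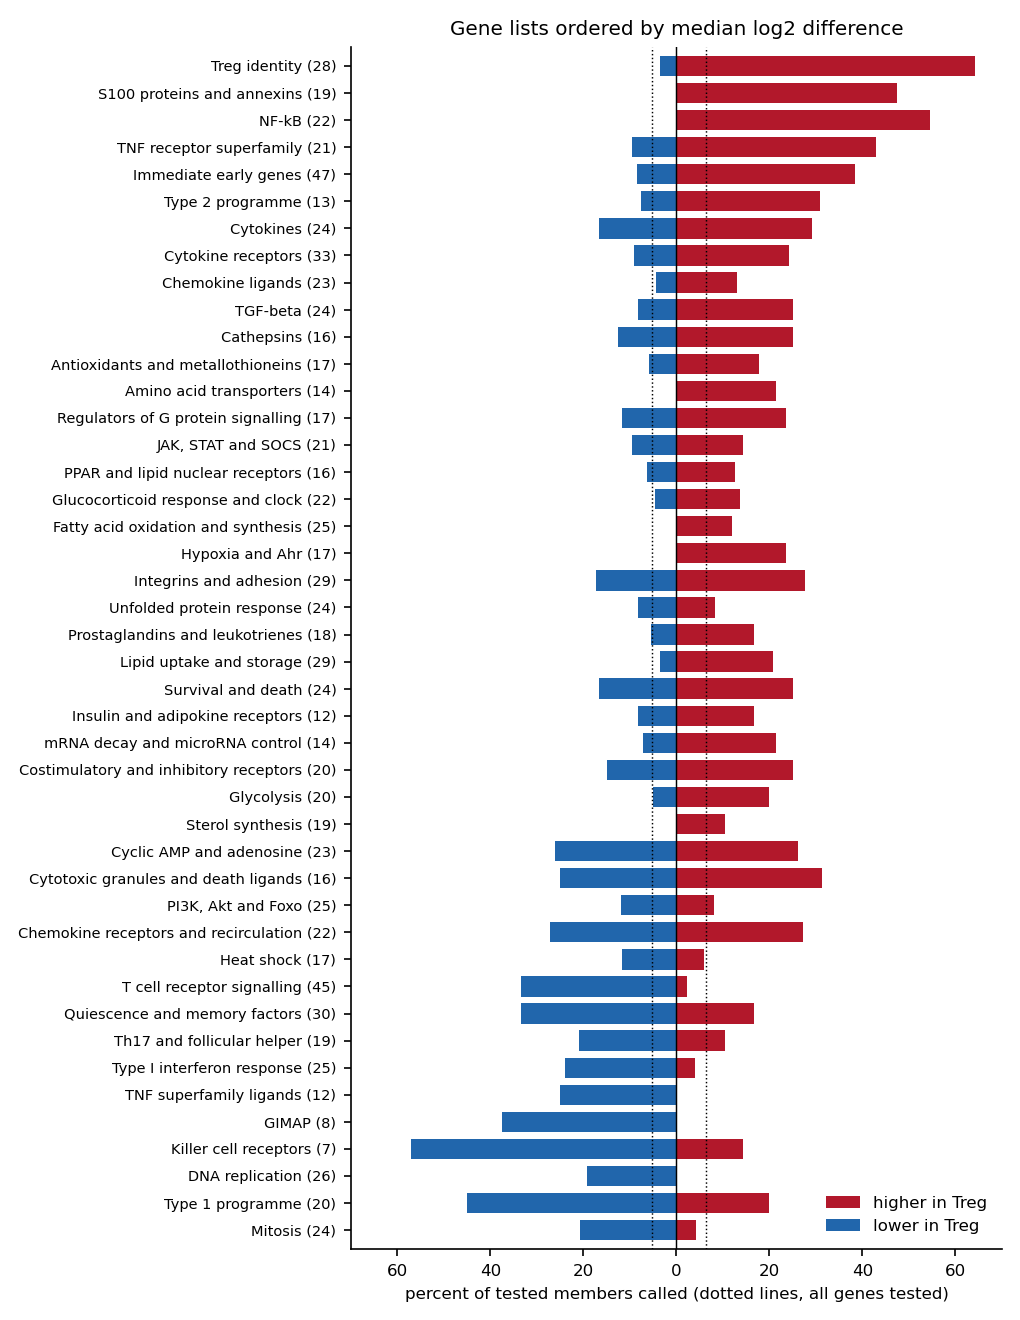
Share of the tested members of each gene list called higher (right) or lower (left) in fat Treg, with lists ordered by their median log2 difference and the number tested in brackets; dotted lines mark 6.32% and 5.19%, the shares of all genes tested. Treg identity (18 of 28 higher), S100 proteins (9 of 19) and NF-kB (12 of 22) lie at the top, and mitosis and the type 1 programme at the bottom.

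Several of the largest differences were in genes of other roles. AA467197, which encodes a small mitochondrial protein, read 1630, 2821 and 3134 on Treg arrays and 35.4, 59 and 52.7 on Tconv arrays (5.67 ± 0.26, adjusted p = 2.0e-10). Hpgd, the enzyme that inactivates prostaglandin E2, read 1755, 2874 and 2251 against 158, 59.1 and 80 (4.63 ± 0.30, adjusted p = 6.8e-09). Tmtc2, an enzyme of the endoplasmic reticulum, read 2700, 3070 and 3704 against 169, 93 and 133 (4.62 ± 0.28, adjusted p = 3.4e-09), and Dmxl2, a regulator of vesicle acidification, read 396, 1107 and 677 against 43.9, 34.8 and 25 (4.31 ± 0.26, adjusted p = 3.7e-09). That the lowest Treg array was above the highest Tconv array for each of these 4 genes was a condition of their choice. Neb, the giant actin-binding protein of muscle, rose by 4.10 (adjusted p = 1.5e-08), Cdh17, a cadherin of intestinal epithelium, by 3.73 (adjusted p = 1.1e-09), and Slc15a3, a lysosomal peptide transporter, by 3.62 (adjusted p = 3.5e-08).

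In the opposite direction, Btbd11, Fgf13 and Pxylp1 were among the 20 largest. Btbd11 read 66.8, 28.8 and 38.7 on Treg arrays and 769, 1187 and 914 on Tconv arrays (-4.48 ± 0.24, adjusted p = 1.3e-09), and its 2 further bright probe sets gave -3.18 and -2.63. Fgf13, an intracellular relative of fibroblast growth factors, read 61.6, 22.9 and 44.2 against 663, 810 and 613 (-4.12 ± 0.32, adjusted p = 9.7e-08). Pxylp1, a phosphatase of proteoglycan synthesis, fell by 3.56 (adjusted p = 4.3e-06). In all, 40 genes called higher lay below the filter on all 3 Tconv arrays and above it on all 3 Treg arrays, and 50 called lower showed the reverse. Their differences rest on one side at background, so their size is uncertain. Of 736 called genes with another bright probe set, 651 had the same sign on every such probe set and 85 the opposite sign on at least 1.

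The fat difference was set against the same contrast in lymph node and thymus by a test of the difference between tissues. The Treg effect in fat differed from that in lymph node for 622 genes (4.85% of those tested) and from that in thymus for 793 (6.19%), at an adjusted p under 0.05. The fat mice differ from the thymus mice in strain, age and tissue at once, and these cannot be told apart. Of the genes called in fat, 247 were called in the same direction in lymph node and 31 in the opposite one. For thymus the counts were 236 and 49. The shares of all genes tested that were called in lymph node and in thymus are not given here. These overlaps are therefore counts only and do not show how many would be shared without a relation. All 31 and all 49 also passed the test of the difference. Opposite effects add up in that test, so this was close to given by their choice and is no separate support. Genes called in fat alone, and different from both other tissues, numbered 167 higher and 131 lower.

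Foxp3 differed alike by size, with 4.18 in fat, 4.36 in lymph node and 4.57 in thymus, and the fat difference was -0.19 ± 0.39 relative to lymph node (adjusted p = 0.90). Pmaip1 differed by 2.23, 2.45 and 2.33 in the same order. Klrg1 differed by less in fat than in lymph node, 2.41 against 4.29 (difference -1.88 ± 0.28, adjusted p = 4.1e-04), in a tissue whose Tconv arrays already read 1715 to 2491. Socs2, an inhibitor of cytokine signals, read 988, 1116 and 1134 on fat Treg arrays and 1238, 1561 and 1400 on fat Tconv arrays (-0.37, not called), against 4.24 in lymph node and 4.62 in thymus (difference from lymph node -4.61 ± 0.36, adjusted p = 3.6e-07).

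Several genes with a large rise in fat had small differences elsewhere. Cxcl3 differed by 0.48 in lymph node and -0.03 in thymus, and Hpgd by 0.14 and -0.21. Pparg differed by -0.15 and 0.33, and its fat difference exceeded that of lymph node by 3.46 ± 0.34 (adjusted p = 4.8e-06). Egln3 and Hilpda exceeded lymph node by 3.67 ± 0.43 (adjusted p = 3.5e-05) and 2.71 ± 0.34 (adjusted p = 5.9e-05). For NF-kB, 5 of 22 tested genes differed from lymph node, Nfkbie by 2.42 ± 0.27 (adjusted p = 2.1e-05). Il10 was called in lymph node too (1.26 ± 0.16, adjusted p = 1.0e-04) and was higher by a further 3.54 ± 0.23 in fat (adjusted p = 5.3e-08).

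Other genes turned in sign between tissues. P2rx7 was lower in fat Treg (-3.10) and higher in lymph node Treg by 1.33 (adjusted p = 0.0076; difference between the tissues -4.43 ± 0.39, adjusted p = 1.7e-06). Ptger4 was lower in fat Treg (-0.99) and higher in Treg of lymph node (1.21, adjusted p = 6.8e-06) and thymus (1.03, adjusted p = 4.2e-05). Cxcr3 and Nkg7 were likewise higher in Treg of lymph node, by 0.84 and 0.96, and of thymus, by 2.25 and 2.06. Kif23 turned the other way, with 1.98 in fat, -1.16 in lymph node (adjusted p = 0.0078) and -1.21 in thymus (adjusted p = 0.0056). Itgb3, the beta-3 integrin chain, gave 0.80 in fat (adjusted p = 0.013), -1.57 in lymph node (adjusted p = 7.7e-05) and -2.46 in thymus (adjusted p = 5.1e-07). Bcl2 and Tbx21, which were lower in fat Treg (-3.81 and -4.57), differed by 0.50 and 0.55 in lymph node and were not called there.

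**Figure D5:**
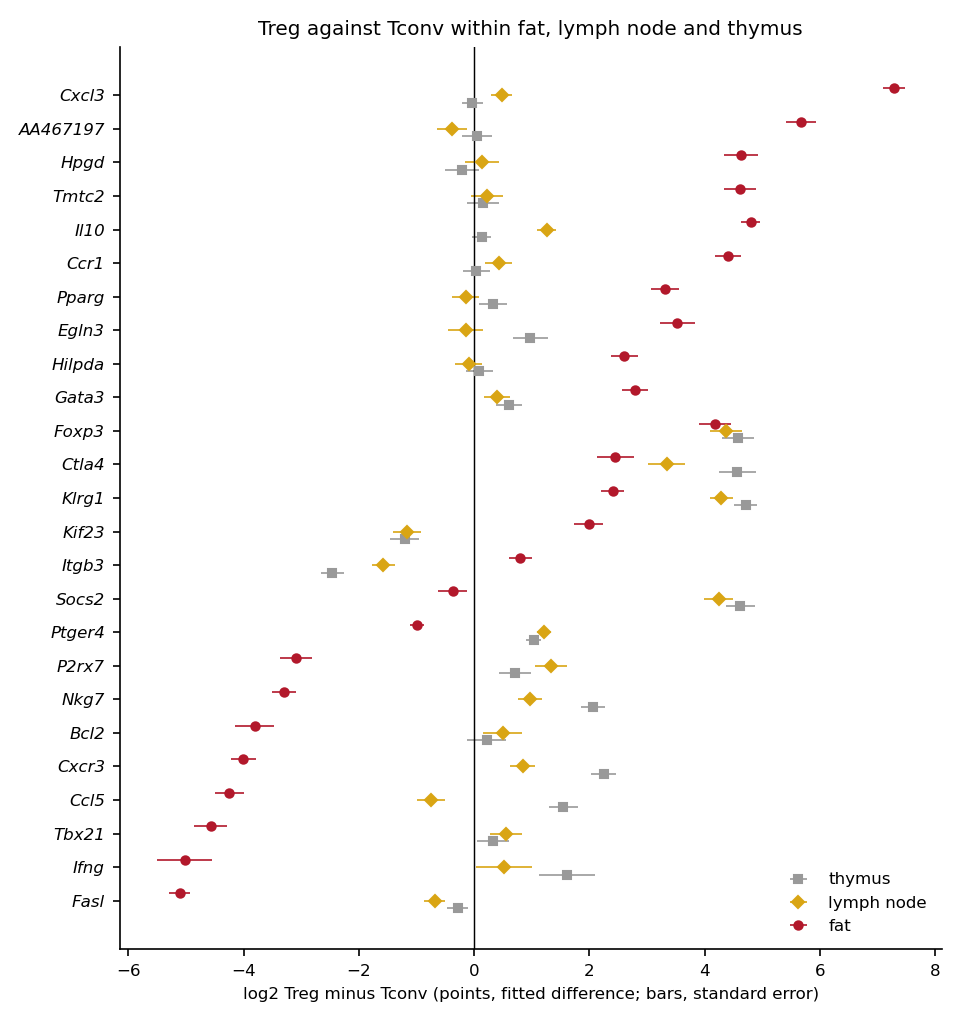
Fitted log2 difference between Treg and Tconv in fat (circles), lymph node (diamonds) and thymus (squares), with bars of 1 standard error, 3 arrays a group. Foxp3 lies between 4.18 and 4.57 in all 3 tissues, whereas Cxcl3 is at 7.28 in fat and at 0.48 and -0.03 in the others, and Cxcr3 and Nkg7 are below 0 in fat only.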

How the data were processed

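RNA of sorted cells was amplified in successive rounds and hybridised to Affymetrix M430v2 arrays, per the labels' protocols. The authors deposited intensity values on a linear scale, made by RMA in GenePattern per the series' design text; the version, and which arrays were normalized together, are not given in the sources used here. Median intensity was 76.9 to 82.2 on fat arrays and 57.9 to 63.0 on the others. Arrays carry no read depth, and their number limits the precision.

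The deposited values were taken to log2. Of 45101 probe sets, 34945 had 1 gene symbol, 932 several and 9160 none, beside 64 controls. Each gene was read from the probe set with the highest mean over 18 arrays, and 12821 of 18193 genes passed a filter on dim signals (intensity 65.9, log2 6.04) in the mean of at least 1 group. The filter can be passed through a group of another tissue. limma 3.58.1 in R 4.3.3 fitted 6 groups of 3 arrays, with Benjamini-Hochberg adjustment over all genes tested and a threshold of 0.05. The test was checked on simulated data with independent errors. These lack the shared deviations of same-numbered fat arrays given below, so the check does not cover them.

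The 6 fat arrays were chosen by their labels; this comparison, and the genes of each list (56 lists, 1100 genes), were chosen with earlier results of these data known. Named genes were the 20 largest called differences in each direction with groups apart, the 3 largest called members of each list in each direction, the 5 largest in each direction of each comparison between tissues, and genes of prior interest; others were chosen after their values were seen. Some genes are not analysed here. Same-numbered Treg and Tconv fat arrays deviated together (correlations 0.50, 0.35 and 0.54), so a replicate block was fitted as an alternative, beside other scalings, filters, probe set rules and leaving out each array. The labels do not say whether same-numbered arrays came from the same mice.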

Additional observations from a re-analysis of the deposited data

Results flagged for a closer look

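The Treg effect in fat differed from that in lymph node for 622 genes and from that in thymus for 793, by a test of the difference in limma at an adjusted p under 0.05. The tissues differ also in mice and age, and the thymus in strain, and these cannot be told apart from the tissue.

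Relative to lymph node, the largest positive differences in the log2 effect were those of Cxcl3 (6.81), AA467197 (6.06), Hpgd (4.49), Tmtc2 (4.40) and 1700061F12Rik (4.11). The largest negative ones were those of Ifng (-5.54), Tbx21 (-5.13), Cxcr3 (-4.85), Socs2 (-4.61) and Fasl (-4.43). Socs2 differed from the rest in that its effect was large in lymph node and not called in fat.

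Relative to thymus, Cxcl3 (7.32), AA467197 (5.62), Hpgd (4.84), Il10 (4.67) and Ccr9 (4.61) led the positive differences. Ifng (-6.64), Cxcr3 (-6.26), Ccl5 (-5.80), Nkg7 (-5.36) and Eomes (-5.15) led the negative ones. Cxcl3, AA467197, Hpgd, Ifng and Cxcr3 were among the 5 largest of their direction in both comparisons, which share the fat arrays.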

How the results depend on the processing

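Pairing the arrays by number as a replicate block raised the calls in fat from 1476 to 2652 (1311 higher, 1341 lower), those relative to lymph node to 1416 (599 higher, 817 lower) and those relative to thymus to 1855 (887 higher, 968 lower). With the 6 fat arrays alone and the block, 1036 genes were called lower. The block changed no call of the 200 named genes called in fat. Without 1 array the fat count ran from 1104 (without Treg array 3) to 1593 (without Tconv array 1, where 46.7% of calls were higher, against 60.0% without Treg array 2), and 155 of the 200 named calls were kept in all 6 such fits. Under the other settings the fat count ran from 1287 (fat arrays alone) to 1564 (quantile normalization). Nt5e reversed, to 0.019, when read from its probe set brightest in fat (adjusted p = 0.977); the cause was not tested. Genes near the filter on dim signals have uncertain fold sizes.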
